A study of Mus musculus with 40 samples.

Results

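The RNAs of 9 chemokine-system genes were followed in the eye after laser injury. They are the CXC ligands *Cxcl1*, *Cxcl10*, *Cxcl12*, *Cxcl13*, *Cxcl14* and *Cxcl16*, the ligand *Cx3cl1*, and the CXCL12 receptors *Cxcr4* and *Ackr3*. The members were chosen by name, through the Ensembl identifiers that carry these symbols, and make up 9 of the 54307 genes of the deposited table. All 9 were found there, and all 9 passed the filter on low values (a mean normalized count of at least 1) in retina, in choroid and in both tissues together.

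The study used adult C57BL/6J mice of both sexes in which every animal, control or mutant, carried floxed *Tgfbr2* alleles and received tamoxifen eye drops at an age of 6 to 7 weeks. *Tgfbr2ΔEC* mice also carried Cdh5-CreERT2, a Cre recombinase under the endothelial VE-cadherin promoter, so that only endothelial cells lose the TGFβ receptor, while the Cre-negative controls keep it. PLX5622, a CSF1R inhibitor that depletes mononuclear phagocytes (MP), was fed from the first tamoxifen dose until the end in the groups called + PLX, and a normal diet in those called – PLX. Each eye received 6 laser spots, and retina and lesion-bearing central choroid were taken on day 3, which gave 5 mice in each of the 4 groups, 20 mice and 40 libraries.

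Chemokines are small secreted proteins that direct cell movement through G protein-coupled receptors. CXCL12 acts on CXCR4 and is also bound and internalised by ACKR3, a scavenging receptor. CXCL16 and CX3CL1 are made as membrane-anchored proteins that are cut from the cell surface by ADAM10 and ADAM17, and CX3CL1 signals to CX3CR1, which in the retina is carried by microglia. CXCL1 recruits neutrophils through CXCR2, CXCL10 is induced by interferon and acts on CXCR3, CXCL13 recruits CXCR5-bearing lymphocytes, and CXCL14 is a constitutively made chemokine of epithelia and other tissues.

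In whole-tissue RNA, a loss of cells that make a transcript and a loss of transcript per cell cannot be told apart. Values are normalized counts, with 1 read worth about 0.89 to 1.19 in choroid and 0.75 to 1.13 in retina, at roughly 21538000 to 28649700 and 20847700 to 30218800 reads per library. *Tgfbr2* itself, the targeted gene, was at 10503 ± 425 (SD, n = 5) in control – PLX and 10176 ± 1077 in *Tgfbr2ΔEC* – PLX choroid (log2 difference -0.05, SE 0.0891, adjusted p = 0.925), and at 11155 ± 1529.8 and 11219.9 ± 454 with PLX5622, so whole-choroid RNA gave no check of the endothelial deletion. Retina and choroid stood apart by several marker lists. All 10 neural retina markers were higher in retina. All 6 skeletal muscle, 5 melanocyte and 10 fibroblast and mural markers were higher in choroid. Sums of the 8 Mueller glia and astrocyte markers overlapped, at 66694 to 96701 normalized counts in retina and 54712 to 99555 in choroid. Photoreceptor RNA was also present in the choroids, with the 10 neural retina markers summing to between 2496 and 138260.0 normalized counts.

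Of the 6 CXC ligand genes, 3 lie on mouse chromosome 5 (GRCm39). *Cxcl1* (ENSMUSG00000029380, chr5:91039094-91040974, plus strand, 4 exons) sits in a block of 7 CXC ligand genes that spans 146.6 kb. *Cxcl10* (ENSMUSG00000034855, chr5:92494497-92496748, minus strand, 4 exons) sits in a second block of 3 ligand genes over 44.1 kb and lies within the span of *Art3*, which is on the other strand. *Cxcl13* (ENSMUSG00000023078, chr5:96104810-96108927, plus strand, 4 exons) stands alone. The other members lie on other chromosomes, *Cxcl12* on chr6:117144945-117158328, *Cxcl14* on chr13:56436352-56444603, *Cxcl16* on chr11:70344517-70352620, *Cx3cl1* on chr8:95498637-95509055, *Cxcr4* on chr1:128515936-128520044 and *Ackr3* on chr1:90131689-90144473.

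The 250 bases upstream of the annotated start are shown for the 3 chromosome 5 ligands, since they were the members with the NF-κB letters GGGANNNNCC in that window. Capitals mark matches to these letters or, once in *Cxcl10*, to the interferon-stimulated response element letters GAAANNGAAA, on either strand.
Cxcl1 (chr5:91038844-91039093, plus strand): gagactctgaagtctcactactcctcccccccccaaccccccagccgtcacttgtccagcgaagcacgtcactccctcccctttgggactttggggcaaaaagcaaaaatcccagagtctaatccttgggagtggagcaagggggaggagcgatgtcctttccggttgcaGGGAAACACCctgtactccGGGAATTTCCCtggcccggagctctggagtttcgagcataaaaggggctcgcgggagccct
Cxcl10 (chr5:92496749-92496998, minus strand): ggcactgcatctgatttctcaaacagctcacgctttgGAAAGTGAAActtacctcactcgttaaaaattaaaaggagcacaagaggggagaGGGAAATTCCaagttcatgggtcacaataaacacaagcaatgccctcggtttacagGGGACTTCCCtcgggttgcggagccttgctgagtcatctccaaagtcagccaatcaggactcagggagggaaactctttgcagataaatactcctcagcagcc
Cxcl13 (chr5:96104560-96104809, plus strand): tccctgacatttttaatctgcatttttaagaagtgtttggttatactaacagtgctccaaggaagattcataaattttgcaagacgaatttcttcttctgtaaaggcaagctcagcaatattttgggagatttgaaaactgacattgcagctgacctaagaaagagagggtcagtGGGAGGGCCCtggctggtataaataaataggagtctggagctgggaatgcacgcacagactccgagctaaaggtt
The *Cxcl1* window held GGGAAACACC from 80 to 71 bases before the start and the overlapping pair GGGAATTTCC and GGAATTTCCC, which begin 61 and 60 bases before it. *Cxcl10* held GGGAAATTCC at 159, GGGACTTCCC at 103 and GAAAGTGAAA at 213 bases before the start, and *Cxcl13* held GGGAGGGCCC at 75 bases. Such letters are common, as GGGANNNNCC was present in 18.2% and GAAANNGAAA in 3.32% of the 21770 protein-coding promoters of the same length. The only other match among the members was GAAACAGAAA, at 112 bases, in *Cxcl14*. GAGGAAG, bound by PU.1, and CAGACA, the SMAD-binding CAGA box, occur in 10.3% and 15.6% of these promoters and were found in 0 of the 9 member windows. A match describes letters only and is not evidence of binding, and a missing match says only that these letters are not in this window.

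The members differed first by tissue. Of the 24317 genes tested over both tissues, 82.0% differed between choroid and retina (19930 genes, limma with Benjamini-Hochberg adjustment, 40.8% higher in choroid), so a tissue difference was the rule, and all 9 members differed too, 6 of them higher in choroid. *Cxcl12* had the largest difference among the members. It ranged from 13069.6 to 26209 normalized counts in the 20 choroids (median 17319) and from 301 to 522 in the 20 retinas (median 418), a log2 difference of 5.42 (SE 0.057, adjusted p = 1.42e-41), with no overlap. Its receptors were higher in choroid as well, *Cxcr4* by 4.03 on the log2 scale (336 to 975 against 16.5 to 78.4 normalized counts) and *Ackr3* by 3.87 (776 to 1638 against 50.2 to 167). The inflammatory ligands *Cxcl1* and *Cxcl10* lay between *Cxcl12* and these receptors, with log2 differences of 4.76 and 4.68. *Cxcl1* was listed at 0 in 10 of the 20 retinas and at or under 3 reads in 17, so its log2 difference depends on the pseudocount of 1. *Cxcl16* was 1.92 higher in choroid, with 792 to 1964 normalized counts against 246 to 464.

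The other 3 members, all ligands, had more RNA in retina. *Cx3cl1* ranged from 1863 to 3575 normalized counts in retina and from 1144 to 2977 in choroid (log2 difference -0.49, SE 0.0772, adjusted p = 5.02e-07), and the ranges overlapped. *Cxcl14* ranged from 1368 to 2581 in retina and 304 to 1936 in choroid (log2 difference -1.15, SE 0.18, adjusted p = 4.32e-07). *Cxcl13* was low in both tissues, at 7.98 to 57.96 in retina and 0 to 39.9 in choroid (log2 difference -1.68, SE 0.23, adjusted p = 3.86e-08). With a neural retina score as covariate the *Cx3cl1* difference was -0.35 and no longer passed (adjusted p = 0.339).

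Per kilobase of transcript, the order of the levels also differed between the tissues. In the 10 choroids on normal diet, *Cxcl12* stood first at 2763 ± 263 normalized counts per kb (SD, n = 10) and did not overlap the next member, *Cxcl16*, at 549.5 ± 68.5. *Cx3cl1* (459.8 ± 91.9), *Cxcr4* (436 ± 67.4), *Cxcl14* (350.4 ± 149), *Ackr3* (348 ± 69.00) and *Cxcl10* (234 ± 155) followed, each overlapping its neighbour. *Cxcl1* (42.4 ± 12.6) and *Cxcl13* (19.9 ± 10.6) were the lowest. In the 10 retinas on normal diet *Cx3cl1* (745 ± 139.6) and *Cxcl14* (612 ± 96.6) led with overlapping ranges, and *Cxcl14* lay above *Cxcl16* (114 ± 26.6) without overlap. *Cxcl12*, the leading ligand of the choroid, lay below these 3 at 69.97 ± 8.88, and the retinal receptors were close to each other, *Ackr3* at 24.1 ± 5.57 and *Cxcr4* at 22.9 ± 9.73.

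**Figure D1:**
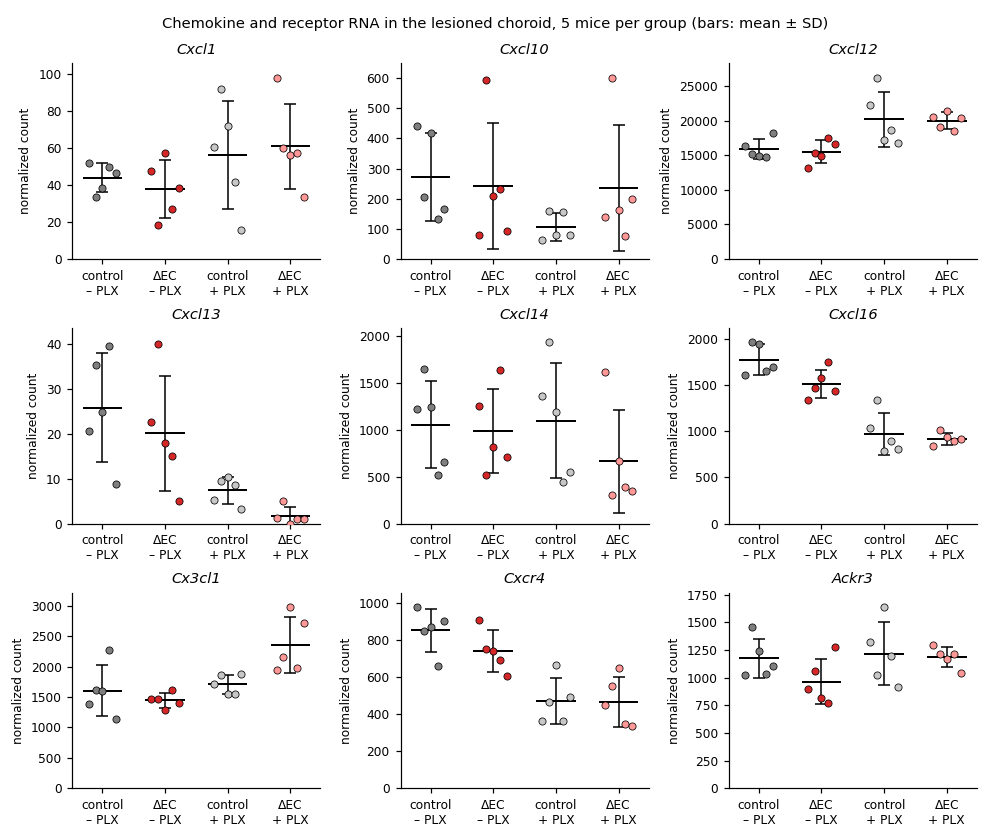
Normalized counts of the 9 members in the 20 choroids, 1 point per mouse, in 4 groups of 5 (control or *Tgfbr2ΔEC*, without or with PLX5622), with the group mean and SD as bars. *Cxcl16* on the PLX5622 diet lies at 792 to 1337.7 against 1338.2 to 1964 on the normal diet, *Cxcl12* and *Cx3cl1* sit higher on the PLX5622 diet, and *Cxcl14* is spread widely within every group.

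The diet comparison asks which chemokine RNAs change when MP are depleted. In choroid, 5 of the 9 members changed with PLX5622 over both genotypes. *Cxcl16*, *Cxcl13* and *Cxcr4* fell, whereas *Cxcl12* and *Cx3cl1* rose. Across all genes the same test called 7.13% of 23619 (1684 genes), 2.07% being higher and 5.06% lower. The median log2 difference of the members was -0.39, the value of *Cxcl14*, and that of all genes was 0.00. Within controls 2 members passed (3.75% of all genes did) and within *Tgfbr2ΔEC* 4 (4.06%), and these comparisons use the same mice as the pooled comparison.

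*Cxcl16* had the smallest adjusted p of the members. Control – PLX choroids held 1612, 1964, 1943, 1649 and 1701 normalized counts and *Tgfbr2ΔEC* – PLX choroids 1338, 1468, 1573, 1749 and 1439.5. On PLX5622 the values were 1033, 1338, 792, 895 and 806 in controls and 837, 1014, 936, 891 and 915 in *Tgfbr2ΔEC*. Every choroid of the PLX5622 diet lay below the lowest of the normal diet, narrowly so for mouse 12 (1337.7 against 1338.2), so the diets did not overlap, as was so for 1.8% of all genes (424 of 23619). The difference was -0.80 on the log2 scale (SE 0.085, adjusted p = 7.35e-07), and it passed within controls (-0.89, adjusted p = 4.17e-05) and within *Tgfbr2ΔEC* (-0.72, adjusted p = 0.000618). In retina the same RNA lay at 246 to 464 without and 255 to 399 with PLX5622, a log2 difference of -0.05 (95% interval -0.31 to 0.20).

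*Cxcl13* was a rare transcript that fell further. The values were 20.7, 35.4, 24.8, 39.5 and 8.74 in control – PLX and 22.5, 39.9, 17.8, 15.1 and 4.96 in *Tgfbr2ΔEC* – PLX. With PLX5622 they were 5.25, 9.56, 10.3, 8.52 and 3.35 in controls and 1.16, 5.12, 0, 1.06 and 1.04 in *Tgfbr2ΔEC*. The last group lay lowest, with 4 of its 5 choroids at about 1 read or none, and the diets overlapped through the lowest choroids of the normal diet. The difference was -2.30 (SE 0.38, adjusted p = 0.000296). Within *Tgfbr2ΔEC* it was -2.99 (adjusted p = 0.00134), whereas within controls -1.61 did not pass (adjusted p = 0.125). The difference between these 2 effects did not pass either (-1.38, 95% interval -2.96 to 0.20, adjusted p = 0.833).

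*Cxcr4*, the signalling receptor for CXCL12, fell by about the same factor as *Cxcl16*. Its values were 975, 846, 870.3, 661 and 899.5 in control – PLX and 909, 750.4, 739, 689 and 603 in *Tgfbr2ΔEC* – PLX. They were 361, 462, 666, 362 and 493 in control + PLX and 450.3, 552, 648, 346 and 336 in *Tgfbr2ΔEC* + PLX. Most + PLX choroids lay under all – PLX choroids, with an overlap at the highest + PLX values. The difference was -0.79 (SE 0.13, adjusted p = 0.000349). It passed within controls (-0.88, adjusted p = 0.00624) and within *Tgfbr2ΔEC* (-0.70, adjusted p = 0.0383), although the latter call was lost without mouse 6, 7, 8, 9, 16, 19 or 20, one at a time (log2 difference -0.83 to -0.59 over all omissions, adjusted p up to 0.122). It was also lost with no filter on low values (adjusted p = 0.052), with size factors recomputed within the fit (0.0508), with upper-quartile scaling (0.0504) and with the neural retina score (-0.65, adjusted p = 0.231). *Ackr3*, the scavenging receptor, did not pass (log2 difference 0.18, SE 0.11, adjusted p = 0.389, 95% interval -0.04 to 0.40), with 776 to 1456 normalized counts without and 916 to 1638 with PLX5622.

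*Cxcl12*, the ligand that CXCR4 and ACKR3 share, rose. Its normalized counts were 16249, 15227, 14911, 14664 and 18146 in control – PLX and 13069.6, 15343, 14894, 17486 and 16656 in *Tgfbr2ΔEC* – PLX. They reached 22195, 26209, 17151, 18683 and 16798 in control + PLX and 20539.6, 18998, 21442, 18448 and 20426 in *Tgfbr2ΔEC* + PLX. The *Tgfbr2ΔEC* + PLX choroids all lay above the – PLX choroids of both genotypes, and the control + PLX choroids overlapped them at their lower end. The rise was 0.35 (SE 0.079, adjusted p = 0.00591). It was of the same size within controls (0.33, adjusted p = 0.123) and *Tgfbr2ΔEC* (0.37, adjusted p = 0.0665), neither of which passed alone. Per kilobase, the ratio of *Cxcl12* to *Cxcr4* in a choroid was 4.62 to 8.88 without PLX5622 (median 6.48, n = 10) and 8.28 to 19.7 with it (median 15.6, n = 10). The corresponding ratio of *Ackr3* to *Cxcr4* was 0.586 to 1.25 and 1.07 to 2.17.

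*Cx3cl1*, the membrane-bound ligand of CX3CR1, also rose in choroid. It was measured at 1384, 1617, 1599, 2278 and 1144 in control – PLX and 1467, 1464, 1282, 1608 and 1402 in *Tgfbr2ΔEC* – PLX. With PLX5622 the choroids held 1715, 1854, 1541, 1547 and 1873 in controls and 1946, 2161, 2977, 1976 and 2718 in *Tgfbr2ΔEC*. Within *Tgfbr2ΔEC* the diets did not overlap, as was so for 6.52% of all genes (1540 of 23619) and for 3 of the 9 members, *Cxcl12*, *Cxcl16* and *Cx3cl1*, whereas within controls they overlapped. The rise over both genotypes was 0.40 (SE 0.10, adjusted p = 0.0185), made of 0.69 in *Tgfbr2ΔEC* (adjusted p = 0.00763) and 0.12 in controls (adjusted p = 0.796). The test of the difference between these 2 effects gave 0.57 (95% interval 0.13 to 1.00), which did not pass over all genes (adjusted p = 0.576). *Cx3cl1* was itself higher in retina, and the neural retina markers summed lower on PLX5622 in *Tgfbr2ΔEC* choroids (47316 to 138260.0 against 6598 to 21089.6 normalized counts). With the neural retina score as covariate the *Cx3cl1* difference within *Tgfbr2ΔEC* was 0.73 (adjusted p = 0.0332). Its receptor moved the other way. *Cx3cr1* lay at 1300.2 to 1996 in the – PLX and 94.4 to 219.8 in the + PLX choroids (log2 difference -3.47, SE 0.12, adjusted p = 1.29e-13), so that the per-kilobase ratio of *Cx3cl1* to *Cx3cr1* was 0.728 to 1.65 without and 9.88 to 26.2 with PLX5622.

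The remaining ligands did not pass in choroid. *Cxcl10* varied widely between mice, with 441, 207, 419, 134 and 164 in control – PLX, 79.2, 595, 210.4, 232 and 92.5 in *Tgfbr2ΔEC* – PLX, 62.1, 158, 77.8, 155 and 79.7 in control + PLX and 139, 602, 161, 76.5 and 198 in *Tgfbr2ΔEC* + PLX. The highest choroid of a group was over 3 times its lowest in 3 of the 4 groups, and the diet difference was -0.65 (95% interval -1.44 to 0.14, adjusted p = 0.376). *Cxcl1* gave 0.43 (95% interval -0.16 to 1.02, adjusted p = 0.454) at 15.3 to 97.3 normalized counts. For *Cxcl14* the value was -0.39 (-1.08 to 0.30, adjusted p = 0.583).

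The cell markers of the choroid moved with the same diet. Of 16 MP markers, 14 fell and 0 rose, and they summed to 41739 to 49124 normalized counts without PLX5622 and to 11157 to 15364 with it. Of 10 endothelial markers 6 rose and 0 fell, with sums of 26569 to 32332 and 29534 to 38330.3, and of 10 fibroblast and mural markers 3 rose and 0 fell. Of 8 lymphocyte markers 2 fell (sums of 332 to 536 and 96.01 to 294), as did 1 of the 6 neutrophil markers tested (sums over 7 markers of 500.3 to 1045 and 317 to 622, with *Ly6g* listed at 0 in all + PLX choroids). Each of the 16 MP markers was still above 0 in at least 1 choroid of every group. Photoreceptor RNA differed between the diets in *Tgfbr2ΔEC* choroids, where the 10 neural retina markers summed to 47316 to 138260.0 without and 6598 to 21089.6 with PLX5622 and did not overlap, whereas control choroids overlapped at 2794 to 27059 and 2496 to 133926. With a neural retina score as covariate, the same test within *Tgfbr2ΔEC* called 533 genes in place of 958 and 3 members in place of 4, and over both genotypes 5 members. The part of the MP, endothelial, fibroblast, lymphocyte and neutrophil shifts in the changes of *Cxcl16*, *Cxcl13*, *Cxcr4*, *Cxcl12* and *Cx3cl1* was not tested.

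**Figure D2:**
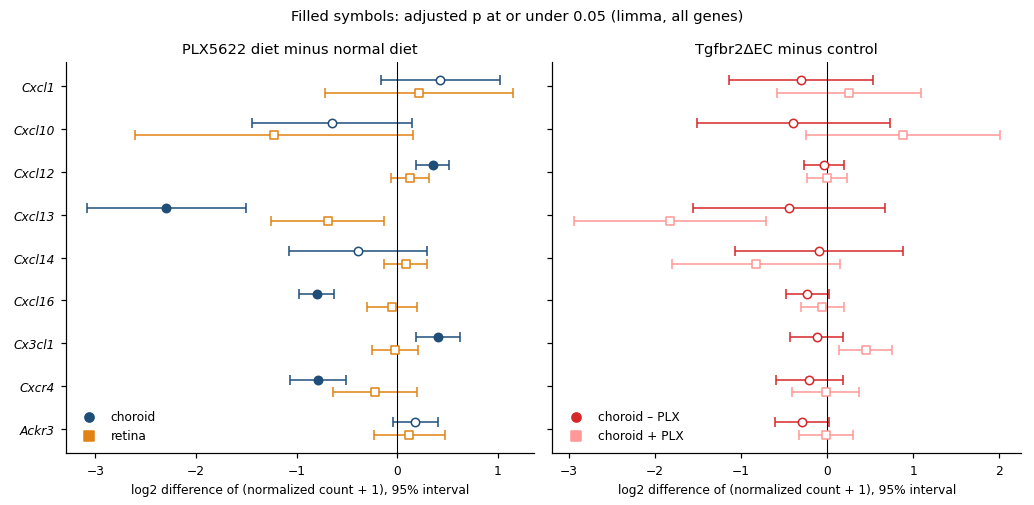
Log2 differences of the 9 members with 95% intervals, on the left for PLX5622 against normal diet in choroid (circles) and retina (squares), on the right for *Tgfbr2ΔEC* against control in choroid without (circles) and with (squares) PLX5622. Filled symbols passed an adjusted p of 0.05, namely *Cxcl12*, *Cxcl13*, *Cxcl16*, *Cx3cl1* and *Cxcr4* for the diet in choroid, and all other symbols are open.

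In retina the diet changed 1.09% of 23243 genes (254 genes, 250 of them lower) and 0 of the 9 members, 1 of which had an unadjusted p under 0.05, as did 6.28% of all genes. That member was *Cxcl13*, at 56.6, 28.97, 42.5, 45.7 and 52.8 in control – PLX, 44.1, 57.96, 26.7, 24.9 and 15.9 in *Tgfbr2ΔEC* – PLX, 25.7, 7.98, 37.1, 26.8 and 27.6 in control + PLX and 13.1, 24.7, 26.01, 31.9 and 20.5 in *Tgfbr2ΔEC* + PLX. The groups overlapped, as the diets did for all 9 members in retina (0.422% of genes did not overlap), and the log2 difference of -0.69 (95% interval -1.25 to -0.13) did not pass over all genes (adjusted p = 0.543), while an exact two-sided permutation test of this single RNA gave p = 0.0158. The 95% intervals for *Cxcl12* (-0.06 to 0.31), *Cxcl14* (-0.13 to 0.30) and *Cx3cl1* (-0.25 to 0.20) were within 1 log2 unit of 0 on both sides, whereas those for *Cxcl1* (-0.72 to 1.15) and *Cxcl10* (-2.61 to 0.15) were not. In these retinas *Cx3cr1* was at 143 to 375 without and 0 to 4.19 with PLX5622, while *Cx3cl1* was at 2051 to 3575 and 1863 to 3027. The 16 MP markers summed to 2421 to 5096 and 649 to 840.0 normalized counts in retina without and with PLX5622. Among them *Adgre1* and *Cd163* were listed at 0 in all retinas on PLX5622, so no count of falls is given.

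**Figure D3:**
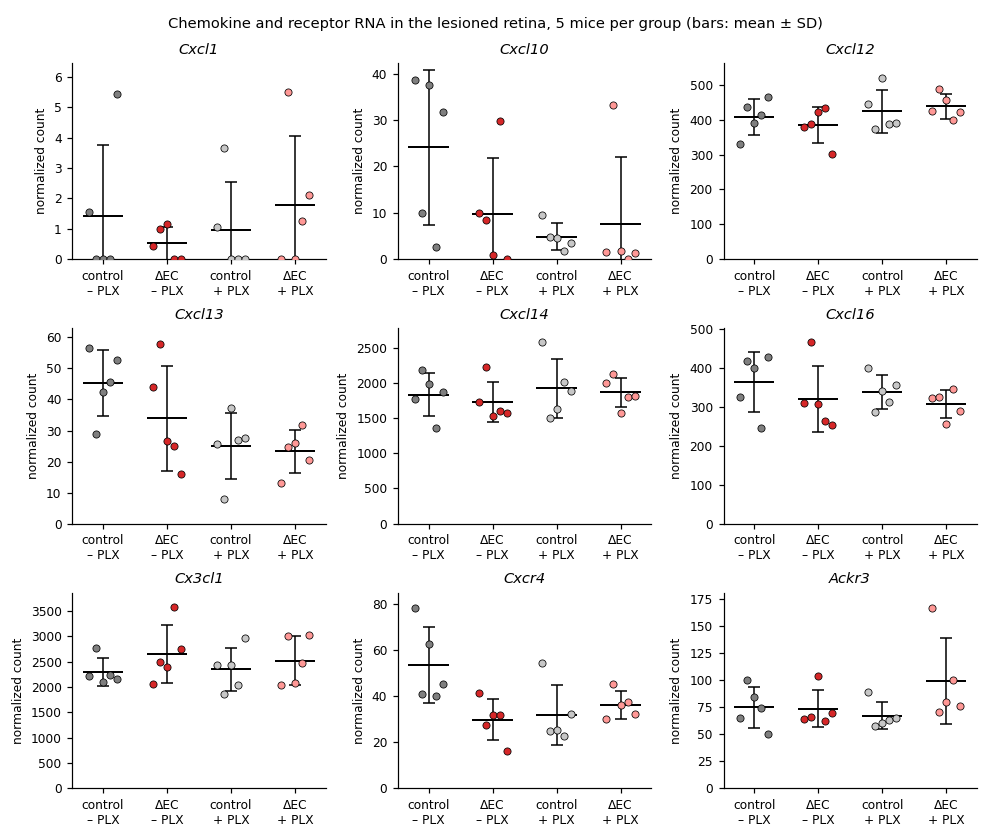
Normalized counts of the 9 members in the 20 retinas, 1 point per mouse, in the same 4 groups of 5 with mean and SD. *Cx3cl1* and *Cxcl14* lie between 1368 and 3575 in every group, *Cxcl1* is at 5.52 or less, and the groups overlap for every member.

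Whether the diet effect differed between the tissues was tested directly over the 40 libraries, where 1.37% of 24317 genes passed (332 genes). Among the members *Cxcl16* passed (log2 difference -0.75, SE 0.15, adjusted p = 0.0023), its effect being -0.80 in choroid and -0.05 in retina. *Cxcl13* (-1.60, adjusted p = 0.0865), *Cxcr4* (-0.57, adjusted p = 0.339), *Cx3cl1* (0.43, adjusted p = 0.239) and *Cxcl12* (0.23, adjusted p = 0.504) did not. *Cxcl13* did pass when mouse 5, 10, 12 or 17 was left out, one at a time (adjusted p down to 0.0308, log2 difference -1.83 to -1.43).

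The genotype comparison asks whether loss of endothelial TGFβ signaling alters these RNAs, with MP present and with MP depleted. None of the 9 members passed in any of the 4 comparisons, against 1 gene of 23619 (0.00423%) in choroid on either diet and 0 genes in retina (0.0%). The count of genes for the – PLX choroids was not stable, being 303 when those 10 libraries were fitted alone and 411 without mouse 15, with 0 members in both. At an unadjusted p under 0.05 the counts of members were 0 and 2 in choroid without and with PLX5622, and 1 and 0 in retina, where the shares of all genes were 9.25% and 3.76% in choroid and 3.26% and 2.71% in retina. In the – PLX choroids the log2 differences ran from -0.44 (*Cxcl13*) to -0.03 (*Cxcl12*). Their signs were not stable, as *Cxcl13* was 0.037 and *Cxcl14* 0.22 with the neural retina score as covariate, *Cxcl14* was 0.24 with the sex score, and *Cxcl14* and *Cx3cl1* crossed 0 when single mice were left out (up to 0.11 and 0.019). The median over the members was -0.23, against 0.01 over all genes. *Ackr3* had the lowest unadjusted p of the members (-0.29, adjusted p = 0.597). *Cxcl16* had the lowest exact permutation p, with means of 1774 ± 167 in controls and 1514 ± 156 in *Tgfbr2ΔEC* (SD, n = 5; -0.23, 95% interval -0.48 to 0.02, adjusted p = 0.607, exact two-sided permutation p = 0.0476). Neural retina markers moved with genotype in these same choroids, their sum being 2794 to 27059 normalized counts in controls and 47316 to 138260.0 in *Tgfbr2ΔEC*, and their part in the member values was not tested beyond the fit with a neural retina score, in which 0 members passed.

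On the PLX5622 diet 2 members had an unadjusted limma p under 0.05 in choroid, without passing over all genes. *Cx3cl1* was higher in all 5 *Tgfbr2ΔEC* + PLX choroids than in any of the 5 control + PLX choroids, a separation seen in 0.512% of all genes (121 of 23619) and in 1 of the 9 members, the values being those given above and the *Tgfbr2ΔEC* + PLX mice being the ones that also enter the diet comparison (0.45, 95% interval 0.14 to 0.76, adjusted p = 1.00). The exact two-sided permutation p was 0.00794, the smallest that 5 against 5 mice can give. Any complete separation gives this p, so it adds nothing to the separation itself. Relabelling alone separates a gene with the same probability of 0.00794, and the share of all genes that separated was no higher. *Cxcl13* was at 7.39 ± 2.97 in control + PLX and 1.68 ± 1.98 in *Tgfbr2ΔEC* + PLX (SD, n = 5; -1.82, adjusted p = 1.00, exact permutation p = 0.0159), low counts in both groups. The interval for *Cxcl12* on this diet was -0.23 to 0.23, and on the normal diet -0.27 to 0.20.

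In retina *Cxcr4* was the member with the lowest p for genotype. The normal-diet values were 78.4, 41.1, 62.7, 39.99 and 45.5 in controls and 41.3, 27.7, 32.05, 32.05 and 16.5 in *Tgfbr2ΔEC*. With PLX5622 they were 54.5, 24.8, 25.3, 22.8 and 32.4 and 29.98, 45.5, 36.2, 37.6 and 32.3. The – PLX groups overlapped in 1 *Tgfbr2ΔEC* retina. The differences were -0.83 on the normal diet (adjusted p = 0.985) and 0.24 on PLX5622 (adjusted p = 1.00), and their difference, 1.07 (95% interval 0.23 to 1.90), did not pass (adjusted p = 1.00). The genotype by diet interaction called 0.0% of genes in choroid and in retina, and 0 members in either.

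*Cxcl14* varied widely within each group of choroids. Its choroid values were 1229, 1647, 1244, 516 and 655 in control – PLX, 1251, 517, 820.2, 1643 and 715 in *Tgfbr2ΔEC* – PLX, 1366, 1936, 1191, 448 and 549 in control + PLX and 1622, 304, 664, 391 and 352 in *Tgfbr2ΔEC* + PLX. Each group held some choroids at 1191 or more and others at 820 or less. After group means were removed, the protein-coding genes most like *Cxcl14* over the 20 choroids were the Y-linked *Kdm5d* (r = 0.91) and *Ddx3y* (r = 0.907), among 16984 compared. The labels give no sex, so mice were classed by whether *Ddx3y* or *Xist*, the RNA of the inactive X chromosome, was higher, a comparison added after these values were seen. *Ddx3y* was 1964 to 2679 in 9 choroids and 0 to 5.24 in the other 11, the class was the same in choroid and retina of all 20 mice, and the 9 mice with Y-linked RNA were 3, 2, 3 and 1 of the 5 in the groups in the order above.

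*Cxcl14* was 1191 to 1936 in the 9 choroids with Y-linked RNA and 304 to 820 in the 11 without, with no overlap overall or within any group, as was so overall for 0.0593% of genes (14 of 23619). With the class as a term beside the 4 groups, the log2 difference was 1.42 (SE 0.16, adjusted p = 6.75e-05). The class called 0.0762% of the 23619 choroid genes (18 genes), 6 on chromosome Y, 6 on chromosome X and 6 on other chromosomes, namely *Cxcl14*, *C7*, *Nppc*, *Ikzf4*, *Kcns1* and *Shisa3*. In the retinas *Cxcl14* was 1506 to 2581 with and 1368 to 2230.2 without Y-linked RNA (0.07, 95% interval -0.17 to 0.30), where 0.043% of genes and 0 members passed. The difference between the tissues was tested over the 40 libraries and passed for *Cxcl14* (log2 difference 1.35, SE 0.20, adjusted p = 0.00201), which was 1 of 2 genes called (0.00822%), the other being *C7*, a complement component. The other 8 members did not pass in choroid, with differences from -0.04 (*Cxcl10*) to 0.53 (*Cxcl1*).

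**Figure D4:**
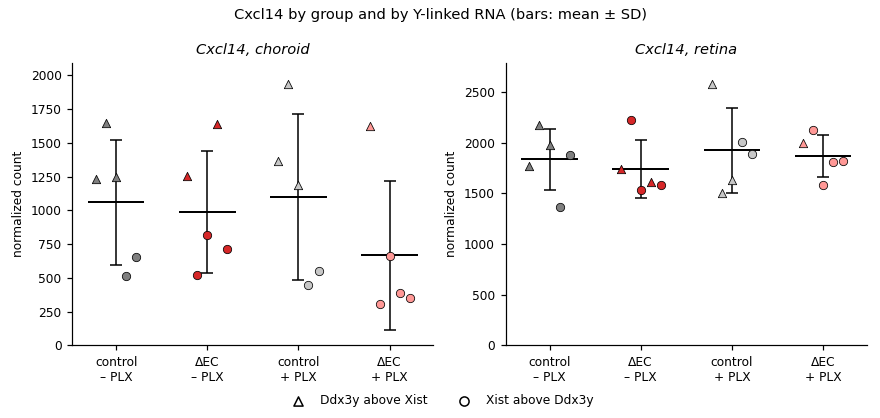
*Cxcl14* normalized counts in choroid (left) and retina (right) by group, 1 symbol per mouse, as triangles where *Ddx3y* exceeded *Xist* and as circles where it did not, with group mean and SD as bars. In choroid all 9 triangles lie at 1191 or above and all 11 circles at 820 or below, and in retina the symbols are mixed.

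The genes whose RNA was most like that of each other member were ranked in the same way, over the 20 libraries of a tissue after the group means were removed. In choroid *Cxcl12* was most like *Tamalin* (r = 0.886) and *Cdh11* (0.846), a cadherin of mesenchymal cells. *Cxcl16* was most like *Ly6e* (0.883) and *Brms1* (0.864), and *Cxcl10* most like *Ifit1* (0.782), an interferon-induced gene, and *Eef1ece2* (0.781). *Cxcr4* was nearest to *Aars1* (0.864) and *Spon2* (0.794), *Cx3cl1* to *Ppox* (0.839) and *Adarb2* (0.789), *Cxcl1* to *Psme2* (0.817) and *Bud31* (0.792), *Ackr3* to *Dusp16* (0.784) and *Msh5* (0.78), and *Cxcl13* to *Dnali1* (0.768) and *Oasl1* (0.754). In retina, over 16571 genes, *Cxcl14* was nearest to *Cd83* (0.942) and *Fbxo44* (0.941), *Cxcl16* to *Rfxank* (0.928) and *Tmem238* (0.893), *Cx3cl1* to *Colq* (0.843) and *Surf4* (0.818), and *Cxcl10* to *Il1rn* (0.836) and *Xpot* (0.788), with no member having the same nearest gene as in choroid. The nearest retinal genes were *Rpf1* (0.804) and *Nme7* (0.776) for *Ackr3*, *Cpne8* (0.788) and *Tax1bp3* (0.782) for *Cxcr4*, *Cdk2* (0.788) and *Ccdc194* (0.777) for *Cxcl13*, *Ccnd1* (0.786) and *Lst1* (0.775) for *Cxcl1*, and *Glp2r* (0.747) and *Gm4847* (0.746) for *Cxcl12*. Such coefficients are the highest among all genes compared, which share the same libraries and their depth, and they describe likeness only.

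Around the members, the rest of the chemokine system was taken from a list of 29 genes. Between the tissues, 9 of the 12 partners were higher in choroid, as were 40.8% of all 24317 genes, and 82.0% of all genes differed either way. In retina alone 6 of the 9 other ligands and 4 of the 8 other receptors did not pass the filter, so they get no count here. In retina the receptor kinase *Grk3* (-0.56) was higher than in choroid, as was the decoy receptor *Ackr1* (-3.85), whose gene overlaps *Cadm3* on the same strand, so that its reads are uncertain. Among the other CXC ligands, 8 of 9 passed the filter in choroid, where 2 fell with the diet and 0 rose. *Pf4*, the platelet factor CXCL4, lay at 381 to 743 without and 14.1 to 148 with PLX5622 (log2 difference -3.47, SE 0.26, adjusted p = 5.61e-09). *Cxcl2*, a CXCR2 ligand encoded next to *Cxcl1*, lay at 10.6 to 46.2 and 1.88 to 22.03 (log2 difference -1.51, SE 0.36, adjusted p = 0.0101), a fall, whereas *Cxcl1* did not pass. The median of the 8 was -1.29, and *Cxcl9*, an interferon-induced CXCR3 ligand, just missed (-1.88, adjusted p = 0.0514). In retina 3 of the 9 passed the filter, *Pf4* among them through its values on the normal diet alone, 0 to 6.43 normalized counts with 6 of 10 retinas at or under 3 reads, against a listing of 0 in all 10 retinas with PLX5622, so no retinal difference is given for it.

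Of the 8 other receptors in choroid, 2 fell and 1 rose. Besides *Cx3cr1*, the CXCL10 receptor *Cxcr3* fell, with 19.04 to 41.4 normalized counts without and 8.82 to 33.2 with PLX5622 (log2 difference -0.89, SE 0.22, adjusted p = 0.0118), with overlap. *Cxcr1*, a receptor for CXCR2-type ligands, rose at counts of 0 to 15.9 and 5.302 to 20.8 (log2 difference 1.50, SE 0.39, adjusted p = 0.0181), with an overlap. The CXCL16 receptor *Cxcr6* (-0.52, adjusted p = 0.288) and the CXCL1 receptor *Cxcr2* (0.20, adjusted p = 0.825) did not pass. In retina 4 of the 8 passed the filter. *Cx3cr1* was among them, but 9 of 10 retinas on PLX5622 were at or under 3 reads, so no retinal difference is given for it. None of the others fell.

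Among 12 processing and signalling partners in choroid, 4 fell and 0 rose. *Cd74*, a receptor component for MIF that also chaperones MHC class II, fell most (log2 difference -1.46, SE 0.15, adjusted p = 3.75e-07), with 8242 to 14596 normalized counts without and 2704 to 7206 with PLX5622 and no overlap. *Arrb2*, a β-arrestin, fell as well, with 1249.6 to 1654 and 429 to 812 (log2 difference -1.34, SE 0.11, adjusted p = 1.18e-08), also without overlap. *Grk2*, a kinase of activated receptors, gave -0.48 (adjusted p = 0.000937), and the sheddase *Adam17* -0.35 (adjusted p = 0.000226), while *Adam10*, the other sheddase of CXCL16 and CX3CL1, gave -0.13 and did not pass (adjusted p = 0.278). In retina 1 of the 12, *Cd74*, fell (adjusted p = 5.4e-05), with 31.96 to 1029.9 normalized counts without and 0 to 35.4 with PLX5622, 5 of the latter 10 retinas being at or under 3 reads. For *Arrb2* the diet effect differed between the tissues (log2 difference -1.31, SE 0.15, adjusted p = 1.15e-07). No such difference is given for *Pf4*, *Cxcr1*, *Cx3cr1* and *Cd74*, whose retinal values on PLX5622 were at or under 3 reads in 10, 10, 9 and 5 of 10 retinas.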

How the data were processed

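RNA was measured in retina and central choroid of 20 mice, 5 per group, by stranded single-read polyA sequencing. The authors quantified reads with Salmon 1.10.1 against GENCODE mouse release 29 (GRCm39 per the labels) after FastQC 0.11.5 and deposited signal values, that is, gene counts normalized with DESeq2 1.36.0 over all 40 libraries, which are not whole numbers. Such estimates share reads between overlapping or similar genes by model, and whole reads could not be recovered (45.3 to 71.4% of low values lay within 0.1 of a whole read), so no count test was run. The read numbers given are approximations from the smallest steps between values.

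Genes whose mean reached 1 in the libraries fitted were tested with limma 3.58.1 (R 4.3.3, trended empirical Bayes) on log2(value + 1). Fold changes of low genes come out too small on this scale. All 4 groups of a tissue, or all 8 groups of both tissues, entered one fit, and a Benjamini-Hochberg adjusted p of at most 0.05 over all genes tested was called. The two-sided exact permutation tests of single RNAs exchanged genotype within a diet or diet within a genotype, and SD is over mice. Within a tissue each mouse gave 1 library, so p-values there measure the spread between mice. The main fits over 40 libraries took the tissues of a mouse as separate libraries. A fit with mouse as a block was run for tissue and diet by tissue, but not for the sex class by tissue. Choroid and retina come from the same mouse by the number in the library names, and the deviations of a mouse's tissues from their group means correlated with r from -0.197 to 0.354 (median 0.181, over 0.1 in 14 of 20 mice, 15687 genes). Identifiers were matched to symbols and positions through GENCODE mouse release 39 (53700 of 54307, 607 unmatched), promoter letters come from the GRCm39 genome, and levels per kb use the canonical transcript. The pipeline was tested on simulated data. The members, gene lists and comparisons were chosen with earlier results of these data known. Named genes are all members, *Tgfbr2*, *Cx3cr1*, pathway-list genes called in a reported comparison (between tissues mostly as counts, without the ligands and receptors that failed the retinal filter), and for each member the 2 protein-coding genes with the highest correlation. *Cxcl9*, *Cxcr6*, *Cxcr2*, *Adam10* and the genes called for the sex class were named after their values were seen. Alternatives covered pseudocount, filter, scaling, sex and neural retina scores, robust fitting, separate fits, a mouse block and omission of each mouse.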

Additional observations from a re-analysis of the deposited data

Results flagged for a closer look

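Among the 72 groups of 5 mice, 9 held a mouse whose gap to its nearest neighbour exceeded 0.71 of the group's whole range. The expected number of about 3.6 holds only for normally distributed values in independent groups. Here the gaps were taken on untransformed counts, the groups shared mice, and all 9 values were the highest of their group. The 9 therefore cannot be set against 3.6, and no excess over chance is claimed. In *Tgfbr2ΔEC* + PLX, mouse 17 stood apart for *Cxcl10* in both tissues, at 602 normalized counts in choroid against 198 for the next mouse (gap 0.769) and at 33.4 in retina against 1.77 (gap 0.947). The same mouse had the highest choroid *Cxcl13* of its group, 5.12 against 1.16 (gap 0.773). *Cxcl14* in the choroid of mouse 16, the one *Tgfbr2ΔEC* + PLX mouse with Y-linked RNA, was 1622 against 664 (gap 0.727). In retina the others were *Cxcl1* in mouse 5 of control – PLX (5.45 against 1.55, gap 0.716), *Cxcl16* in mouse 7 of *Tgfbr2ΔEC* – PLX (464 against 310.3, gap 0.727), *Ackr3* in mouse 8 of *Tgfbr2ΔEC* – PLX (103.8 against 70.2, gap 0.815) and in mouse 11 of control + PLX (88.7 against 64.9, gap 0.772), and *Cx3cl1* in mouse 2 of control – PLX (2767 against 2231, gap 0.795).

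Effects that differed between the tissues by a test of the difference itself were the diet effect on *Cxcl16* (-0.75 on the log2 scale, adjusted p = 0.0023, limma) and the difference in *Cxcl14* between mice with and without Y-linked RNA (1.35, adjusted p = 0.00201, limma), which was chosen after seeing the data.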

How the results depend on the processing

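The 5 members called for the diet in choroid and the 9 called between tissues were 5 and 9 in every alternative and omission, apart from the tissue comparison with the neural retina score, where 8 passed (19930 genes became 10346, and *Cx3cl1* was -0.35). With mouse as a replicate block, 268 genes and 1 member passed for diet by tissue and 19855 genes and 9 members for tissue. In these comparisons the pairing changed no member's call. For the sex class by tissue no such block was fitted. Counts of genes moved further in some fits. A minimum mean of 10 left 154 genes for the retinal diet, 104 for it within controls and 0 for the genotype in choroid on either diet. On the normal diet the choroid genotype gave 303 genes when its 10 libraries were fitted alone and 1 to 411 over omissions (411 without mouse 15, 2 without mouse 4 or 8). With PLX5622 it gave 0 with a pseudocount of 5, either score or the 10 libraries alone, and 0 to 1 over omissions, as in retina (1 without mouse 12). Members called were 0 in all of these. The choroid diet within *Tgfbr2ΔEC* gave 533 genes with the neural retina score and 652 to 1405 over omissions, with 3 to 5 members (3 with the score, *Cxcr4* being lost at -0.65). Diet by tissue gave 278 to 620 genes (620 without mouse 15) and 1 to 2 members. The sex class by tissue, added after seeing the data, gave 1 gene with a pseudocount of 0.5, 4 with 5 and 2 to 4 over omissions. Uncalled differences that changed sign were *Ackr3* for diet by tissue (-0.067 with the neural score), *Cxcl13* for genotype in – PLX choroid (0.037 with it), *Cxcl14* there (0.24 with the sex score, 0.22 with the neural score) and *Cxcl10* for diet in *Tgfbr2ΔEC* choroid (0.010 with size factors and 0.013 with upper-quartile scaling). Over omissions the ranges that crossed 0 were -0.12 to 0.018 for *Cxcl16* and -0.067 to 0.034 for *Cx3cl1* (retinal diet), -0.021 to 0.40 for *Cxcl1* and -0.032 to 0.15 for *Ackr3* (diet by tissue), -0.23 to 0.019 for *Cx3cl1* and -0.32 to 0.11 for *Cxcl14* (choroid genotype, – PLX), -0.12 to 0.065 for *Cxcl16* (choroid genotype, + PLX), -0.44 to 0.41 for *Cxcl10* (diet in *Tgfbr2ΔEC* choroid) and -0.0042 to 0.11 for *Cxcl14* (sex class in retina). The cause of these changes was not tested. Exact permutation tests of single RNAs passed for several differences that failed over all genes, since they carry no adjustment. Low counts limit *Cxcl1* and *Cxcl10* in retina and *Cxcl13* in choroid.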
